A study of Mus musculus with 3 samples.

Results

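Dmd is the X-linked gene of dystrophin, and its transcripts were followed here through 3 RNA libraries of myoblasts whose mdx mutation had been edited. The members are every transcript that GENCODE release M21 assigns to Dmd (ENSMUSG00000045103) and that the deposited tables list, matched by Ensembl identifier, which gave 13 of the 14 annotated transcripts and 13 of 121798 transcripts listed in all. The 14th, Dmd-210, is not listed and was not analysed here. The rule reads identifiers and no measured value.

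The study made chimeric mice to obtain gene-corrected muscle stem cells. Its iPSCs were reprogrammed from male embryonic fibroblasts of genotype Dmd-mdx; Pax7-nGFP, in which a nuclear GFP reports Pax7 of satellite cells, and were treated with CRISPR/Cas9 so that the mutated exon 23 is skipped and the reading frame restored. Edited cells were injected into blastocysts carrying Pax7-Cre/ERT2 and Rosa26-lsl-DTA alleles, a pair that lets tamoxifen kill the host's own PAX7+ cells. GFP+ satellite cells sorted from the muscles of the chimeras gave the myoblast lines 66, 67 and 72. All 3 lines carry the mdx allele, the Pax7-nGFP reporter and the edit, so they form 1 group with n = 3 and no control library. The labels do not say which lines came from tamoxifen-injected chimeras, nor the age of each chimera, and they do not state that the lines came from separate animals. A standard deviation below is therefore the spread between 3 lines, and whether they descend from 1 edited clone is not stated in the sources used here.

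Dystrophin ties the actin cytoskeleton of a muscle fiber to a complex of glycoproteins in its membrane, and its loss causes Duchenne muscular dystrophy. The gene has several promoters. The upstream promoters make full-length dystrophin, Dp427, the form of muscle fibers, and internal promoters make shorter proteins that keep the C-terminal end. The shortest of the common forms is Dp71, which starts within intron 62, lacks the actin-binding domain and the rod, and is known from many tissues outside mature muscle and from undifferentiated myoblasts.

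In the GRCm38 coordinates of GENCODE M21, Dmd lies on the plus strand at chrX:82948870-85206141, a span of 2257272 bases. The full-length transcript is Dmd-203 (ENSMUST00000114000), with 79 exons, 14910 bases and 11034 coding bases. The Dp71 class holds Dmd-201 (ENSMUST00000113991), with 18 exons, 4438 bases and 1851 coding bases, and Dmd-202, which is like it but lacks exon 71. Dmd-201 starts 2099.51 kb downstream of the full-length start, at chrX:85048413, in intron 62. The other listed transcripts are 7 that retain an intron and 3 processed transcripts, none of them annotated as coding. The annotation holds no coding transcript that starts at the intron 29, intron 44 or intron 55 promoters, which make the retinal, brain and kidney, and Schwann cell forms Dp260, Dp140 and Dp116.

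**Figure D1:**
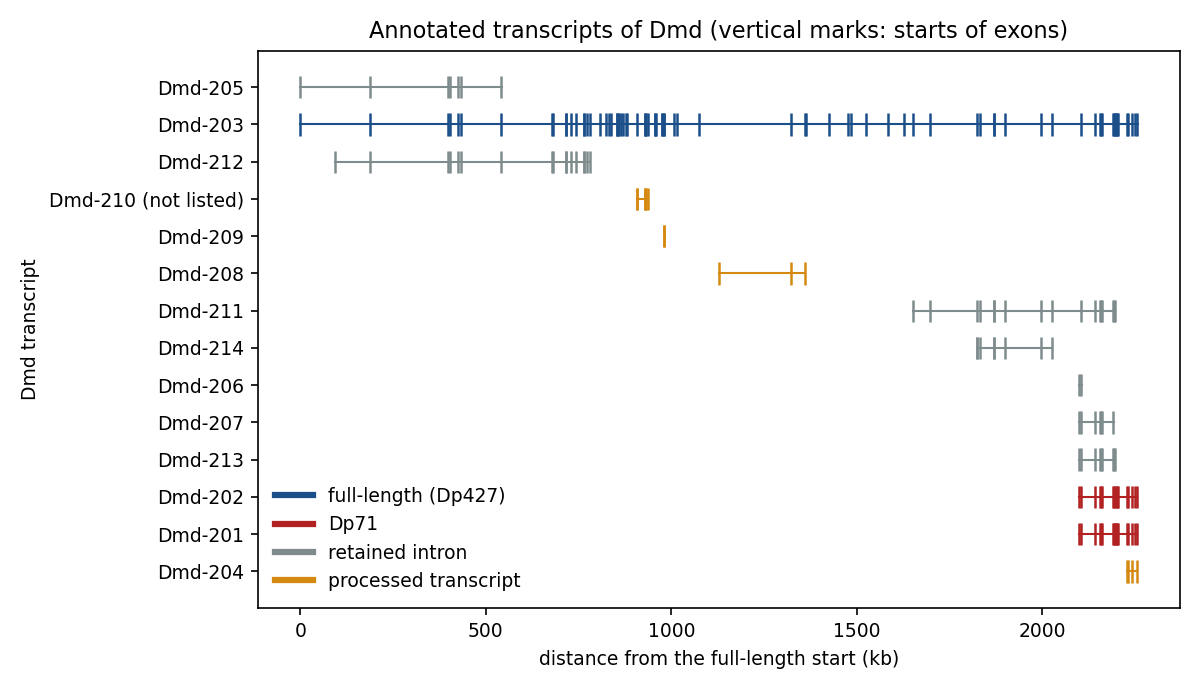
Each of the 14 annotated Dmd transcripts is drawn by its distance from the full-length start in kb, with a vertical mark at the start of each exon and colors for the class. Dmd-203 alone crosses the whole gene, and the Dp71 transcripts begin 2099.51 kb into it.

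The sequences where the long and short forms part, and the exon that the edit addresses, are given from the GENCODE M21 transcripts (GRCm38). Full-length mRNA joins exon 62 to exon 63, whereas Dmd-201 replaces everything upstream with a first exon of 47 bases, of which 27 are untranslated and 20 coding. In the first pair, capitals mark the start of exon 63, which both transcripts share, and the Dmd-201 stretch begins at its start codon. In the second pair, capitals mark the bases after the junction. It shows exon 77 joined to exon 78 as in the full-length form and Dmd-201, or directly to exon 79 as in Dmd-204. In the third pair, capitals again mark the bases after the junction, which is the unedited joining of exons 22 and 23 or the joining of exons 22 and 24 that skipping would make.
full-length exon 62-63: gccctactatatcaaCCACGAGACCCAAAC
Dmd-201 first exon from its start codon: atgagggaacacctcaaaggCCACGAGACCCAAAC
exon 77-78: tccctagttcaagagGAAGAAATGCCCCCG
exon 77-79: tccctagttcaagagGACACAATGTAGGAA
exon 22-23: ctcgggaaattacagGCTCTGCAAAGTTCT
exon 22-24: ctcgggaaattacagAATCACATAAAAACC

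Exon 23, which carries the mdx mutation, lies at chrX:83803306-83803518 in the coding part of Dmd-203. The mdx mutation is a premature stop codon made by a C-to-T change, and the reference sequence is shown without it. Capitals mark the 8 in-frame CAA, CAG and CGA codons in which such a change gives a stop codon. The exon is 213 bases long, an exact 71 codons, so the frame is kept when it is left out, and the reference holds 0 in-frame stops.
exon 23: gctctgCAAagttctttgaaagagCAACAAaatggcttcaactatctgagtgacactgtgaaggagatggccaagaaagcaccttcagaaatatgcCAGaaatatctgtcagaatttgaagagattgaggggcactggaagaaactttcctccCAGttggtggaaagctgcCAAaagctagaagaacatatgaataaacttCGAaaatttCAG

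The tables cannot show whether this exon was skipped. Reads were assigned to annotated transcripts by 31-base words, and no listed Dmd transcript joins exon 22 to exon 24. Of the 30 words that cross this junction, 27 occur in no listed transcript, and the other 3 occur because exons 22 and 23 both end in the same bases. A transcript that skips exon 23 would also lose the 243 words that touch it, but it keeps the rest of the full-length sequence, since the exon is 1.43% of Dmd-203. Full-length values below would therefore count edited and unedited mRNA alike. In the study, each Pax7-nGFP+ myoblast line that was examined held only the edited gene, and sequenced myotube cDNA showed the correction. Its main text does not name those lines by number.

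The libraries held 73274315, 66972426 and 70272367 estimated counts in lines 66, 67 and 72, and between 12405 and 12550 genes with at least 1 TPM (counts divided by transcript length and scaled to 1000000 per library). Levels were read as above 0 from more than 3 counts, or between 0.0409 and 0.0448 CPM (counts scaled to 1000000 per library). The counts are estimates in which shared reads are assigned to transcripts, so a transcript listed at 0 that has few words of its own may still be present. All 7 myoblast markers fixed for the check of cell type, Pax7 and Myod1 among them, were at 10 TPM or more in every line. Of the 5 fibroblast markers, the 3 endothelial markers and the smooth muscle gene Myh11, none had a mean of 1 TPM, and their sums were between 0.497 and 0.822 TPM, 0.431 and 0.883 TPM, and 0.0288 and 0.0550 TPM. The immune markers summed to between 2.97 and 4.31 TPM, nearly all of it Cd68, and the Schwann cell and glial markers to between 1.43 and 1.89 TPM, with Sox10 and S100b at 3 counts or fewer in every line. The neuronal markers summed to between 0.116 and 0.259 TPM.

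Dmd was expressed at a low level in every line. It reached 1.97 TPM in line 66, 4.61 TPM in line 67 and 3.66 TPM in line 72, with a mean of 3.42 ± 1.34 TPM (SD, n = 3), from 343, 735 and 672 estimated counts. By its mean, Dmd stood above 58.3% of the 25520 genes detected. Line 66 was the lowest and line 67 the highest.

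Of the 13 listed transcripts, 4 exceeded 3 counts in every line: the full-length Dmd-203, the Dp71 transcript Dmd-201, Dmd-204 and Dmd-205. A further 4, Dmd-202, Dmd-209, Dmd-211 and Dmd-214, were at 0 in all 3 lines, and 6 in all, with Dmd-207 and Dmd-208, stayed at or under 3 counts in each. Dmd-201 alone had a mean of at least 1 TPM.

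Full-length Dmd-203 was present in all 3 lines, at 0.321, 0.582 and 0.735 TPM in lines 66, 67 and 72, a mean of 0.546 ± 0.210 TPM (SD, n = 3). These levels rest on 183, 300 and 391 estimated counts, or 2.50 CPM (95% Poisson interval 2.15 to 2.89), 4.48 (3.99 to 5.02) and 5.56 (5.03 to 6.14). Line 66 was lowest and line 72 highest, and the intervals of lines 67 and 72 came within rounding of each other. These and all later intervals cover counting error only. They leave out PCR copies, since the reads carry no molecular identifiers, and the error of assigning shared reads to transcripts, and with 1 library per line they do not establish an order of the lines.

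The Dp71 transcript Dmd-201 was the most abundant Dmd transcript per length in every line. It was at 0.697 TPM in line 66, 2.33 TPM in line 67 and 1.39 TPM in line 72, a mean of 1.47 ± 0.818 TPM (SD, n = 3), from 127, 385 and 238 estimated counts. In CPM this was 1.73 (95% Poisson interval 1.44 to 2.06), 5.75 (5.19 to 6.35) and 3.39 (2.97 to 3.85). Line 67 was highest in these libraries and line 72 for the full-length transcript. As 0 of the words of Dmd-201 are its own, its counts are an estimated split of shared reads, and how far the error of that split bears on the order was not tested.

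Set against each other within a line, the Dp71 class was above the full-length class in TPM in 3 of 3 lines, by 2.17-fold, 4.0-fold and 1.89-fold in lines 66, 67 and 72. The log2 ratio of full-length to Dp71, with 0.1 TPM added to both, was −0.92, −1.83 and −0.84, with a mean of −1.20 ± 0.55 (SD). An exact two-sided sign-flip permutation test over the lines gave p = 0.25, the smallest that 3 lines allow, so this design could not reach a threshold of 0.05.

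The order turned in counts, where the length of a transcript is not divided out. Full-length Dmd-203 then exceeded Dp71 by 1.44-fold in line 66 and 1.64-fold in line 72, while line 67 had 0.779 full-length counts per Dp71 count. The log2 ratio of counts was 0.53, −0.36 and 0.71, with a mean of 0.29 ± 0.57 (SD), and the exact sign-flip test gave p = 0.5. Of the counts of both classes together, the full-length class held 59.0% in line 66 (95% Wilson interval 53.5% to 64.4%), 43.8% in line 67 (40.1% to 47.5%) and 62.1% in line 72 (58.3% to 65.9%). The interval of line 67 lay below those of the other two lines, which overlapped. Line 67 was thus the line with the largest part of Dp71 on both scales.

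**Figure D2:**
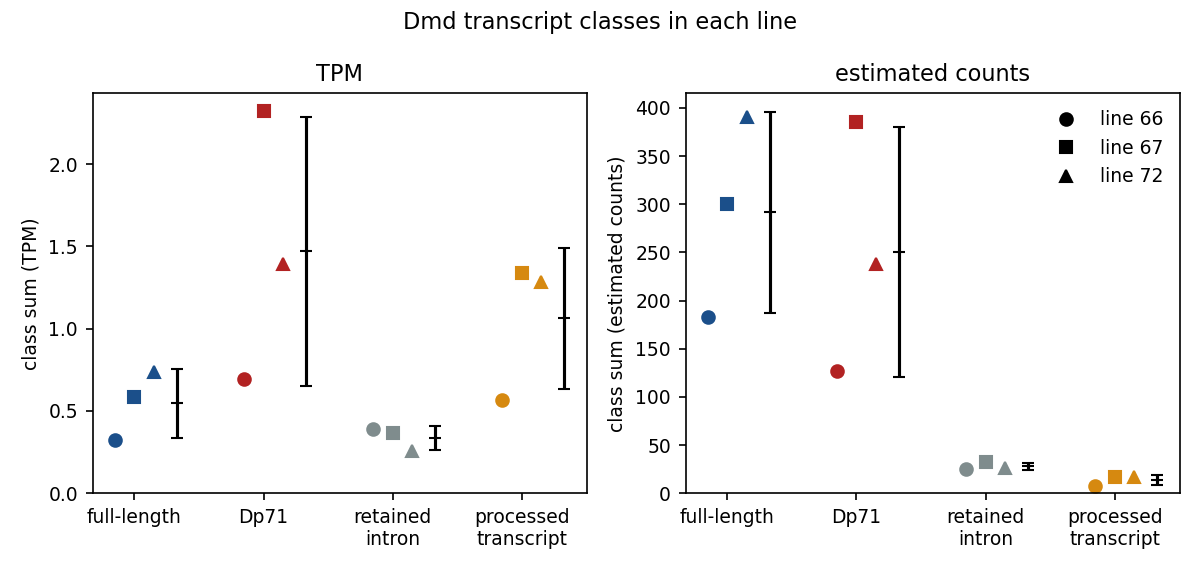
The sums of the 4 transcript classes are plotted for lines 66, 67 and 72, in TPM on the left and in estimated counts on the right, with black bars for the mean and SD of the 3 lines. Dp71 lies above full-length in TPM in each line, and in counts only line 67 keeps that order.

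How far reads can tell these classes apart follows from the sequence that they share. Of the 14880 words of Dmd-203, 10519 (70.7%) do not occur in Dmd-201, and 6526 (43.9%) occur in no other listed transcript. Of the 4408 words of Dmd-201, 47 (1.07%) do not occur in Dmd-203, and 0 are in Dmd-201 alone. The Dp71 level thus rests on reads from the shared 3′ end, and hardly at all on reads of its own first exon. Reads of that end are divided between the transcripts that hold it by what reads elsewhere show for each. Full-length mRNA with denser reads at its 3′ end could thus be counted in part as Dp71. The tables give no coverage along a transcript, so this was not tested.

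The 3′ end adds a limit in the other direction. Exons 1 to 62, upstream of all Dp71 sequence, make up 9417 bases (63.2%) of Dmd-203. A stretch of 4391 bases (29.5%) is shared throughout with Dmd-201. The last 1102 bases (7.39%) of exon 79 run beyond the annotated end of Dmd-201, and all 1072 words in it belong to Dmd-203 alone. A Dp71 mRNA with the longer 3′ end would be counted there as full-length, and from these tables it cannot be told apart from it.

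**Figure D3:**
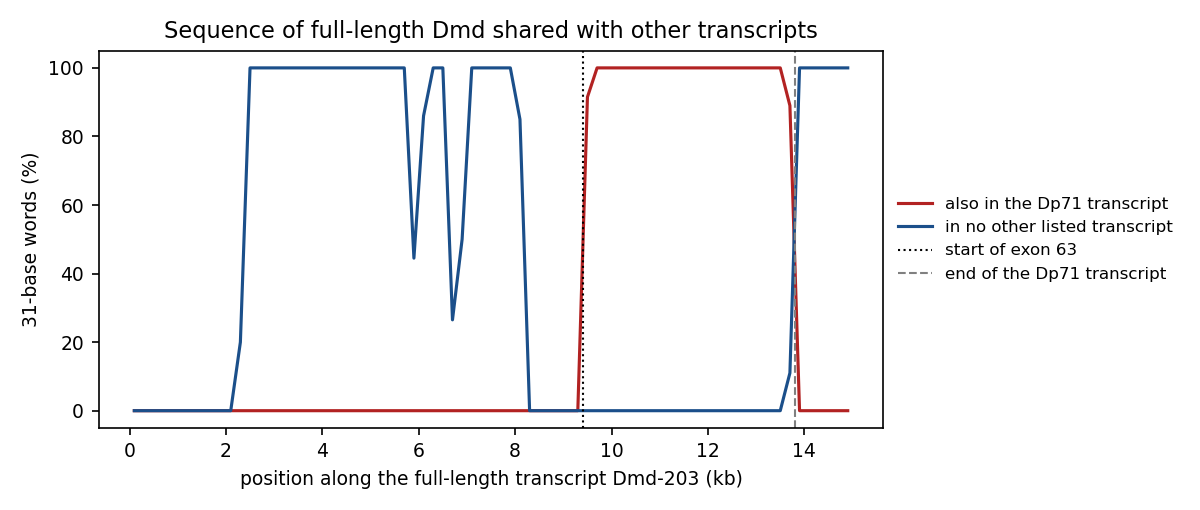
Along Dmd-203, in kb from its start, the lines give the percent of 31-base words that are also in Dmd-201 (red) or in no other listed transcript (blue). The red line is at 0% before exon 63 and returns to 0% past the end of Dmd-201, where the blue line is at 100%.

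Dmd-202, the other Dp71 transcript, differs from Dmd-201 by the absence of the 39 bases of exon 71 and by an earlier end. It was listed at 0 counts in all 3 lines. Only 28 of its 1828 words are its own, and nearly all reads that fit Dmd-202 away from them also fit Dmd-201, so the listed 0 shows how shared reads were assigned and does not cap its level.

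The processed transcripts took a large part of the TPM from few counts. Dmd-204 covers the last exons, from exon 75, and passes from exon 77 to exon 79 without the 32 bases of exon 78, an exon whose skipping shifts the frame and changes the C-terminal end of dystrophin. It was at 0.448, 1.32 and 1.19 TPM in lines 66, 67 and 72, a mean of 0.987 ± 0.471 TPM, above full-length Dmd-203 in 3 of 3 lines, by 1.40-fold, 2.26-fold and 1.62-fold. That order depends on the effective length: with counts divided by the annotated length Dmd-204 was at 0.871, 1.42 and 1.004 times Dmd-203, below it in line 66. This came from only 6.38, 17.0 and 15.7 estimated counts, over a transcript of 596 bases whose effective length in the tables was between 49.2% and 49.9% of that. Of its 566 words, 24 are in no other listed transcript, all of them among the 30 that cross the exon 77-79 junction printed above. Full-length or Dp71 mRNA without exon 78 would hold that junction too, so these counts cannot tell Dmd-204 from such mRNA. Dmd-208, which starts in intron 44 and is 369 bases long, had 1.08, 0.174 and 0.743 counts, and Dmd-209, from exon 40, had 0.

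Transcripts that retain an intron summed to 0.388, 0.364 and 0.255 TPM, a mean of 0.335 ± 0.0708 TPM (SD, n = 3). In TPM line 66 was highest, where Dmd-213 gave 0.333 of the 0.388 TPM, but in estimated counts it was lowest, below the 32.2 and 26.5 of lines 67 and 72. The members of this class that carried the counts differed between lines. Dmd-205, which starts 33 bases upstream of Dmd-203, contains exons 1 to 7 and reads on into intron 7, had 4.53, 14.2 and 24.2 estimated counts. Dmd-212, from intron 1 to intron 17, had 1.84, 11.0 and 0 counts. Dmd-213, from intron 62 to intron 70, had 18.6 counts in line 66 and 0 in lines 67 and 72, and held 0 words of its own. Dmd-206 and Dmd-207, which also start in intron 62, had 0, 5.01 and 2.29 counts and 0, 1.98 and 0 counts. Dmd-211 and Dmd-214, from exon 54 and intron 55, were at 0.

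Retained introns made up 9.82% of the TPM of Dmd summed over the lines, beside a median of 6.05% over the 7013 coding genes with such a transcript. The share was higher than that of Dmd in 38.7% of these genes, which places Dmd within the ordinary range.

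As shares of the TPM of Dmd, Dp71 held 35.3%, 50.4% and 38.0% in lines 66, 67 and 72 (mean 41.3% ± 8.07, SD). Full-length held 16.3%, 12.6% and 20.1% (16.3% ± 3.72). The processed transcripts held 28.8%, 29.1% and 35.0% (30.9% ± 3.51), and the retained-intron transcripts 19.7%, 7.88% and 6.96% (11.5% ± 7.09). Dp71 was the largest class in every line and full-length never exceeded 20.1%.

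As shares of estimated counts, the same libraries gave full-length 53.5%, 40.9% and 58.1% (50.8% ± 8.94) and Dp71 37.1%, 52.4% and 35.5% (41.7% ± 9.36). The processed transcripts fell to 2.18%, 2.34% and 2.44%, and the retained-intron transcripts were at 7.29%, 4.37% and 3.94%. Most reads of Dmd thus went to Dmd-203 and Dmd-201, and the scale decides which of them leads in lines 66 and 72.

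**Figure D4:**
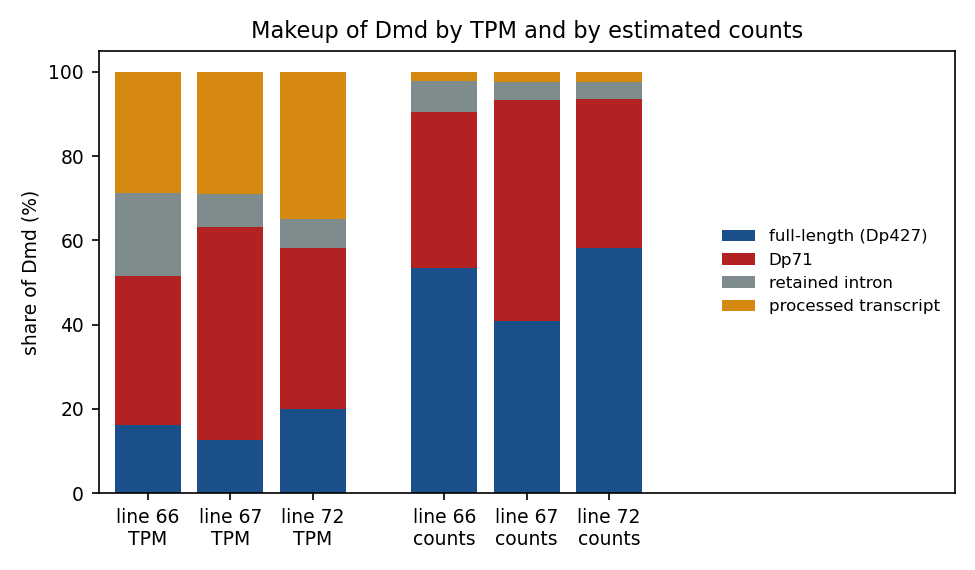
Stacked bars give the share of Dmd in percent held by each transcript class in lines 66, 67 and 72, by TPM (left 3 bars) and by estimated counts (right 3 bars). The processed transcripts take 28.8% to 35.0% of TPM but 2.18% to 2.44% of counts.

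Grouped by where they start, the 5 listed transcripts from intron 62 held 146, 392 and 241 counts in lines 66, 67 and 72, or 52.2%, 52.9% and 39.1% of the TPM of Dmd. The pair that starts at the full-length promoter, Dmd-203 and Dmd-205, held 188, 315 and 415 counts, or 18.2%, 15.5% and 25.9%. Of the remaining starts, exon 75 (Dmd-204) had the most TPM, and exons 40 and 54 and intron 55 had 0 counts. The counts of Dmd-204 do not show a start in exon 75, since longer mRNA without exon 78 would share all of its own words.

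The 2 start regions differ in sequence. RefSeq windows around the first start of each region are given on the plus strand of GRCm38.p6. Their starts, chrX:82948870 and chrX:85048295, are those of the retained-intron transcripts Dmd-205 and Dmd-206. Full-length Dmd-203 starts at chrX:82948903, within the first window, and both Dp71 transcripts start at chrX:85048413, downstream of the end of the second, so that window does not hold their annotated start. In the full-length window capitals mark E-boxes (CANNTG, which MyoD-family factors bind) and a CArG box, the site of serum response factor. In the intron 62 window they mark GC boxes (GGGCGG, here on the other strand as CCGCCC), to which Sp1-type factors bind. All motifs were searched on both strands.
full-length start window, chrX:82948620-82948919: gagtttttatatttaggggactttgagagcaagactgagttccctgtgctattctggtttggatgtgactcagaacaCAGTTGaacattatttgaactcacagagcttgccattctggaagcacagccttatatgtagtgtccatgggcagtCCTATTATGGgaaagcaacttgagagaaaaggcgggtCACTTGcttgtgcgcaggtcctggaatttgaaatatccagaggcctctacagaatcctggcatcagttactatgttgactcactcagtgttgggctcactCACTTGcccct
intron 62 start window, chrX:85048045-85048344: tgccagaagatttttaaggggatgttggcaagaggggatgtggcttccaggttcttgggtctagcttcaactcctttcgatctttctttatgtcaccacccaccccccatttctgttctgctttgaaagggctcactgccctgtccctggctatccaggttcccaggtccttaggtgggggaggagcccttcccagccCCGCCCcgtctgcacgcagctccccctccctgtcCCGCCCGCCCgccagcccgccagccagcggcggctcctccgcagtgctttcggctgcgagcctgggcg

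The full-length window had a GC content of 45.7% and 2 CpG dinucleotides, and the intron 62 window 62.7% and 14. Of 32851 mouse promoter windows of the same length, 24.03% had a lower GC content than the first and 76.9% a lower one than the second. The full-length window held 3 E-boxes, 1 CArG box and 1 TATAAA (as TTTATA, far upstream of the start), and 0 GC boxes. The intron 62 window held 3 GC boxes, of which the last 2 overlap, and 0 of the other motifs. Such motifs are common in all promoters, with an E-box in 72.3%, a GC box in 35.7% and TATAAA in 13.6%, and the CArG box is the rarest of them at 1.63%. A match of letters is a description of the window and does not show a bound factor.

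Between lines, Dmd was called apart where a pair of lines differed by over 2-fold on log2(TPM + 0.1), a scale that understates the change of low genes. With 1 library per line no such difference has a replicate check. Line 67 was 2.27-fold above line 66, line 72 was 1.82-fold above line 66, and line 72 stood at 0.799 of line 67. Of all genes that averaged 1 TPM or more, 6.66% were over 2-fold apart in some pair of lines, and among those with a mean of 1 to 10 TPM, where Dmd lies, 15.5% were. The range of Dmd over the lines, 1.19 on the log2 scale, was exceeded by 4.70% of genes. It rested on line 66, for without that line the range was 0.32, and it was 0.86 without line 67. The median of 418 genes of the X chromosome was only 0.09, 0.14 and 0.06 higher on the log2 scale for line 67 over 66, 72 over 66 and 72 over 67.

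Of all transcripts that averaged 1 TPM or more, 17.3% were over 2-fold apart in some pair of lines. Dmd-201, the only Dmd transcript at that level, was among them, at 3.05-fold in line 67 over line 66, 1.87-fold in line 72 over line 66 and 0.615 of line 67 in line 72. Its range of 1.61 on the log2 scale was exceeded by 7.62% of transcripts. It fell to 0.70 without line 66 and to 0.91 without line 67, both under 2-fold.

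Below that level, where 37.3% of all transcripts with a mean above 0 were past 2-fold in some pair, 4 of 8 Dmd transcripts were. Dmd-204 was 2.59-fold and 2.36-fold higher in lines 67 and 72 than in line 66, and Dmd-205 was 2.29-fold higher in line 72 than in line 66. Dmd-212 and Dmd-213 passed through lines in which they are listed at 0, and since their reads are shared in part or throughout with other Dmd transcripts, no fold is given. Each of these 4 rests on at most 24.2 counts in a line. Full-length Dmd-203 fell just short, at 1.62-fold and 1.99-fold in lines 67 and 72 over line 66, only because 0.1 TPM was added. Without it, line 72 was 2.29-fold above line 66 in TPM and 2.22-fold in CPM, from 391 and 183 counts. The share of all transcripts past 2-fold without the added 0.1 TPM was not computed, so this fold has no matching background.

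Myoblasts that leave the cell cycle begin to make fiber proteins, and 10 genes of differentiation were set beside Dmd. They included Myog, a transcription factor of this step, the fusion genes Mymk and Mymx, and the sarcomere genes Myh3, Myh8, Actc1, Ttn, Neb and Tnnt3. Line 66 was the lowest line for 10 of 10, beside 44.2% of all genes averaging 1 TPM or more. For 8 of 10, line 66 was lowest and line 72 highest, beside 27.0%. Among these 8, Ttn was nearly level in lines 67 and 72, at 17.93 and 17.94 TPM. Myog was at 168, 222 and 310 TPM, and the 10 genes summed to 1029, 1578 and 1896 TPM in lines 66, 67 and 72. Myh8, Mymx, Actc1 and Ckm, 4 of the 10, were over 2-fold apart, beside the 6.66% of all genes. The median log2 difference of line 72 over line 66 was 0.89 for the list and 0.08 for all genes. Full-length Dmd-203 and Dmd-205 had the same order of lines as those 8 genes. Dmd-201 and the gene as a whole, highest in line 67, had that of the other two, Neb (61.8, 116 and 81.5 TPM) and Tnnt3 (208, 402 and 389 TPM). The part of differentiation in the difference between lines was not tested, and in such bulk libraries more cells with a transcript and more of it per cell cannot be told apart.

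**Figure D5:**
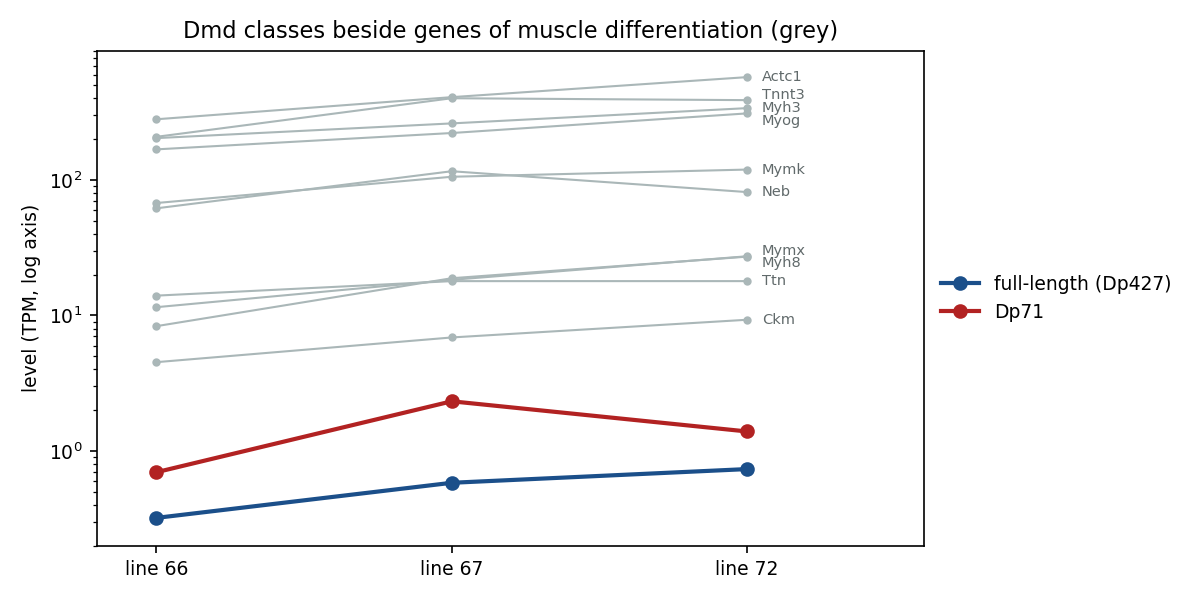
Levels in TPM (log axis) are shown for the full-length and Dp71 classes and, in grey, for 10 genes of muscle differentiation, with lines joining the values of a gene in lines 66, 67 and 72. Both Dmd classes lie below all 10 genes, and Dp71 is highest in line 67 while full-length is highest in line 72.

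Dmd was low beside the proteins it works with. Of 19 genes of the dystrophin complex and its paralogs, 15 had a mean of at least 1 TPM and 14 a higher mean than Dmd, and 11 were at 10 TPM or more in every line. Utrn, the autosomal paralog utrophin, was at 35.2, 32.8 and 37.3 TPM, a mean of 35.1 ± 2.24 TPM, which is 10.3 times that of Dmd. The X-linked paralog Drp2 was at 28.2, 41.3 and 37.4 TPM, or 35.6 ± 6.74 TPM. Of the membrane proteins that bind dystrophin or each other, Dag1 was at 76.02 ± 6.76 TPM and the sarcoglycan Sgca at 114 ± 17.4 TPM. Sgcz and Sntg2 stayed at 3 counts or fewer in every line, and Nos1, the gene of neuronal nitric oxide synthase, had a mean of 0.0740 TPM.

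Of these 15 complex genes and paralogs, 1 was over 2-fold apart between lines, which is near the 6.66% of all genes. It was Sgcd, a sarcoglycan, at 0.600, 1.21 and 2.13 TPM in lines 66, 67 and 72, or 3.18-fold in line 72 over line 66. Utrn differed by at most 0.18 on the log2 scale between lines. The low level of Dmd was thus not shared by most genes of its complex.

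The annotation places 5 other genes within the span of Dmd. Only Tsga8, on the opposite strand in intron 6, is listed, and it had 0 counts in all 3 lines. Among the coding genes with a pattern of levels most like Dmd over the 3 lines, by Euclidean distance on log2(TPM + 0.1) among 21906 genes, were Lrrn2 at a distance of 0.18 (2.23, 4.50 and 3.82 TPM) and Camk2n2 at 0.32 (2.30, 3.93 and 3.46 TPM). With 3 libraries such likeness is a description of their levels.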

How the data were processed

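RNA libraries of 3 myoblast lines were analysed, with the line as the replicate. Per the labels, poly-A RNA with a RIN above 8 was made into stranded libraries, and the submitters' processing notes name bcl2fastq 2.20, fastp 0.20, kallisto 0.46.1 and the build GRCm39. The annotation release and the strand setting are not given in the sources used here. For each transcript the authors deposited an estimated count, with reads shared out among all transcripts they fit, and no replicates were pooled. TPM values, deposited beside it by the authors, divide that count by the effective length and scale it per library, and the lengths are listed too.

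Of 121798 transcripts, 120739 were matched by identifier to GENCODE M21, which gave names, exons and GRCm38 coordinates. Transcripts without a match held between 0.391% and 0.417% of TPM. TPM were summed per gene and per class. The model with the most exons numbered the exons. Coding transcripts were classed by their start and others kept their biotype. Every Dmd transcript was described, with fixed lists of complex, differentiation and cell type genes, the genes within the span of Dmd and the 3 coding genes nearest in pattern, of which 1 is not reported here. The gene and the lists were chosen with earlier results of these data known, though the rule that finds the transcripts reads identifiers alone. Words of 31 bases were compared over 120686 listed transcripts with a sequence. Estimated counts were used for intervals, with a confidence level of 95%.

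Full-length and Dp71 TPM were compared within lines with an exact two-sided sign-flip test. Lines were compared by the 2-fold rule on log2(TPM + 0.1) at a mean of at least 1 TPM. Alternatives were other pseudocounts, filters, folds and scalings (counts, CPM, annotated length, edgeR's TMM factors and DESeq2's size factors), and leaving out each line. Scripts ran in R 4.3.3 (DESeq2 1.42.0, edgeR 4.0.16) and Python 3.11.15 (scipy 1.17.1, pandas 2.3.3, matplotlib 3.10.9, numpy 2.4.6).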

Additional observations from a re-analysis of the deposited data

How the results depend on the processing

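No paired analysis was possible because no second group of samples shares the line numbers, and the comparison of full-length with Dp71 is already made within each line. The log2 ratio of full-length to Dp71 reversed only with counts not corrected for length, to 0.29 (exact sign-flip p = 0.5), since counts grow with length. It was −0.63 with a pseudocount of 1 TPM, −1.45 by annotated length, −2.17 with all other Dmd transcripts as the short class, and −1.38 to −0.88 when each line was left out. The mean level of Dmd, 3.42 TPM, was 2.02 TPM with coding transcripts alone, 8.41 as CPM, 3.41 with either edgeR's TMM factors or DESeq2's size factors, and 2.82 to 4.14 with a line left out. The mean share of the full-length class, 16.3%, was 50.8% of counts and 28.7% of coding TPM, that of Dp71 71.3% of coding TPM, and that of processed transcripts 2.32% of counts. With a line left out, these shares were 14.4% to 18.2% (full-length), 36.7% to 44.2% (Dp71), 28.9% to 32.0% (processed) and 7.42% to 13.8% (retained intron). Over 2-fold apart were 835 genes and 6150 transcripts. The counts were 2945 and 24882 with no filter, 201 and 579 at a mean of at least 10 TPM, 508 and 3533 with a pseudocount of 1, 178 and 1820 at 4-fold, and 395 to 498 and 3280 to 3676 with a line left out. TMM factors and size factors both gave 786 genes, and gave 5460 and 5451 transcripts. The range of Dmd over the lines was under 2-fold with a pseudocount of 1 (log2 range 0.92), and at 1.19 it was short of 4-fold. That of Dmd-201 was likewise under 2-fold with that pseudocount (0.97) and short of 4-fold at 1.61. With a line left out they were 0.32 to 1.19 and 0.70 to 1.61, both lowest without line 66. The bands of 1 to 10 TPM and below 1 TPM, the omission of lines from the spread, the folds without a pseudocount and the annotated length for Dmd-204 were chosen after seeing the data. With no pseudocount the range of Dmd-203 was 1.197 on the log2 scale, past 2-fold. Few counts stand behind the processed and retained-intron classes, with means of 13.7 and 27.9 a line, beside 291 for full-length and 250 for Dp71.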

Other observations

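The effective lengths by which counts were divided were unequal parts of the annotated lengths of Dmd transcripts. In lines 66, 67 and 72 they were 80.1%, 79.3% and 79.6% of the annotated length for full-length Dmd-203, 85.9%, 85.6% and 86.1% for Dmd-201, and 49.9%, 49.6% and 49.2% for Dmd-204. Division by the annotated length instead moved the mean log2 ratio of full-length to Dp71 from −1.20 to −1.45, with the same sign.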
